A study of Mus musculus with 8 samples.

Results

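Notch signalling was examined through 10 genes in RNA flushed from mouse thoracic aortas: the ligands Dll4, Jag1 and Jag2, the receptors Notch1, Notch2, Notch3 and Notch4, and the target genes Hey1, Hey2 and Hes1. They were taken as the probe sets to which the platform annotation gives a member's name as its single gene symbol. Each of the 10 genes had 1 such probe set, out of 30063 genes on the array with a single-symbol probe set, and all 10 were among the 16232 genes tested. The 8 mice were females carrying Cdh5-CreERT2, a tamoxifen-activated Cre recombinase driven by the VE-cadherin promoter and so directed to endothelium, together with floxed Mef2c alleles (Mef2c f/f). At 10 weeks of age 4 of them received tamoxifen on 5 days to delete Mef2c, a MADS-box transcription factor (the EKO group), and 4 littermates received the vehicle alone, sunflower seed oil containing 10% ethanol (the control group). Tamoxifen therefore separates the groups along with the deletion, and the effects of the drug and of the deletion cannot be told apart. Aortas were taken 14 days after the first dose, and each of the 8 arrays (Affymetrix Mouse Transcriptome Array) holds RNA from 1 aorta.

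Notch receptors are single-pass membrane proteins that are bound by ligands of the Delta-like and Jagged families on neighbouring cells. Binding leads to cleavage by an ADAM metalloproteinase and then by the gamma-secretase complex, and the freed intracellular domain joins the DNA-binding protein RBPJ and Mastermind-like coactivators to switch on genes such as Hes1, Hey1 and Hey2, which encode basic helix-loop-helix repressors. In arteries, Dll4, Jag1, Notch1 and Notch4 are known as endothelial genes, and Notch3 as a receptor of vascular smooth muscle; the pathway sets arterial identity and couples endothelium to the muscle of the wall.

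The core of the RBPJ recognition sequence was looked for in the promoters of the members, since RBPJ is the step that joins the receptors to the targets. RefSeq promoter windows of assembly GRCm38.p6, 300 bases from 250 before to 50 after the start of the gene, were at hand for 8 of the 10 members; Hey1 and Hes1 were not among them. On either strand, GTGGGAA (RBPJ) occurred in 1 of the 8 members with a window, Hey2, and in 6.38% of all 32851 mouse promoter windows. The Hey2 window held it at 2 places, and 0.256% of all windows held it at 2 or more. The E box CACGTG is a sequence bound by Hey and Hes proteins among others. For MEF2 the pattern searched was CTA, any 4 bases, TAG, and a count of it is not a count of MEF2 sites in general. Both are palindromes and so were counted once per place. They occurred in none of the 8 windows, against 7.15% and 3.69% of all windows. The Hey2 window is printed because it alone among them carries such a match. It spans chr10:30842734-30843033 of GRCm38.p6 and is written 5′ to 3′ on the minus strand, with both matches in capitals, the first starting 207 bases before the start of the gene and read on the opposite strand, the second starting 4 bases before it.
Hey2: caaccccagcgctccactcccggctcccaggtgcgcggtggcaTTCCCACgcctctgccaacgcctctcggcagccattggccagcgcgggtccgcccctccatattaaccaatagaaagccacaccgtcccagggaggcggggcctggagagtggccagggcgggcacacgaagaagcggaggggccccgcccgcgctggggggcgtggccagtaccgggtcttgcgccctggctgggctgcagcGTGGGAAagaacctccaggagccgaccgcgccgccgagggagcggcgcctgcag
A match is a description of the letters and not evidence of binding.

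The values are log2 expression after the authors' SST-RMA. Over all probe sets the median of an array was 6.06 at the lowest and 6.24 at the highest. Over the tested genes r for pairs of arrays ran from 0.981 to 0.993. The level of one probe set cannot be set against that of another, so each gene is compared only with itself across arrays. As a gauge of background, the 5222 control probe sets marked neg in their names had medians between 7.34 and 7.45 on the arrays. They spread widely, with 95th percentiles of 11.49 to 11.84, a level that Jag1 and Hey2 exceeded on all 8 arrays, Notch1 on 7, Dll4 on 1 and the other 6 members on 0. The labelled tissue is thoracic aortic endothelium. Of 10 endothelial markers 9, among them Cdh5 and Pecam1, read above that median on every array, while Kdr read below it on every array. The mean of the 10 markers lay between 13.99 and 14.07 in control arrays and between 13.96 and 14.21 in EKO arrays. Smooth muscle markers were present in part, with Acta2, Tagln and Smtn above the neg median on all 8 arrays and the other 5 of 8, Myh11 included, below it on all of them. Mef2c itself read 9.77 ± 0.11 in control and 9.75 ± 0.20 in EKO arrays (SD, n = 4 each). Its 1 probe set covers the transcript cluster as a whole. Since the floxed exons are not named in the labels, the value does not check the deletion.

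No Notch ligand, receptor or target passed the test between EKO and control aortas. The difference was smaller than the SD within groups for 8 of the 10 and above it for Hey1 (-0.35, SD 0.34) and Notch3 (0.10, SD 0.06). With limma, 0 of the 10 passed an adjusted p of 0.05, as did 0% of the 16232 genes tested, and at an unadjusted p of 0.05 the counts were 0 of 10 members and 1449 genes in all (8.93%). By direction, 0 members were higher at that threshold, beside 5.42% of all genes, and 0 were lower, beside 3.51%. The groups overlapped for every one of the 10 members, whereas they did not overlap for 6.08% of all genes tested. Of the members 5 had a higher and 5 a lower mean in EKO arrays. Their differences, EKO minus control on the log2 scale, ran from -0.35 to 0.11 with a median of -0.03, beside a median of -0.02 over all tested genes. The median size of a difference, whatever its sign, was 0.09 for the members and 0.10 for all tested genes. RNA from a flushed aorta is a bulk sample, in which fewer cells of a type and less RNA per cell cannot be told apart.

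**Figure D1:**
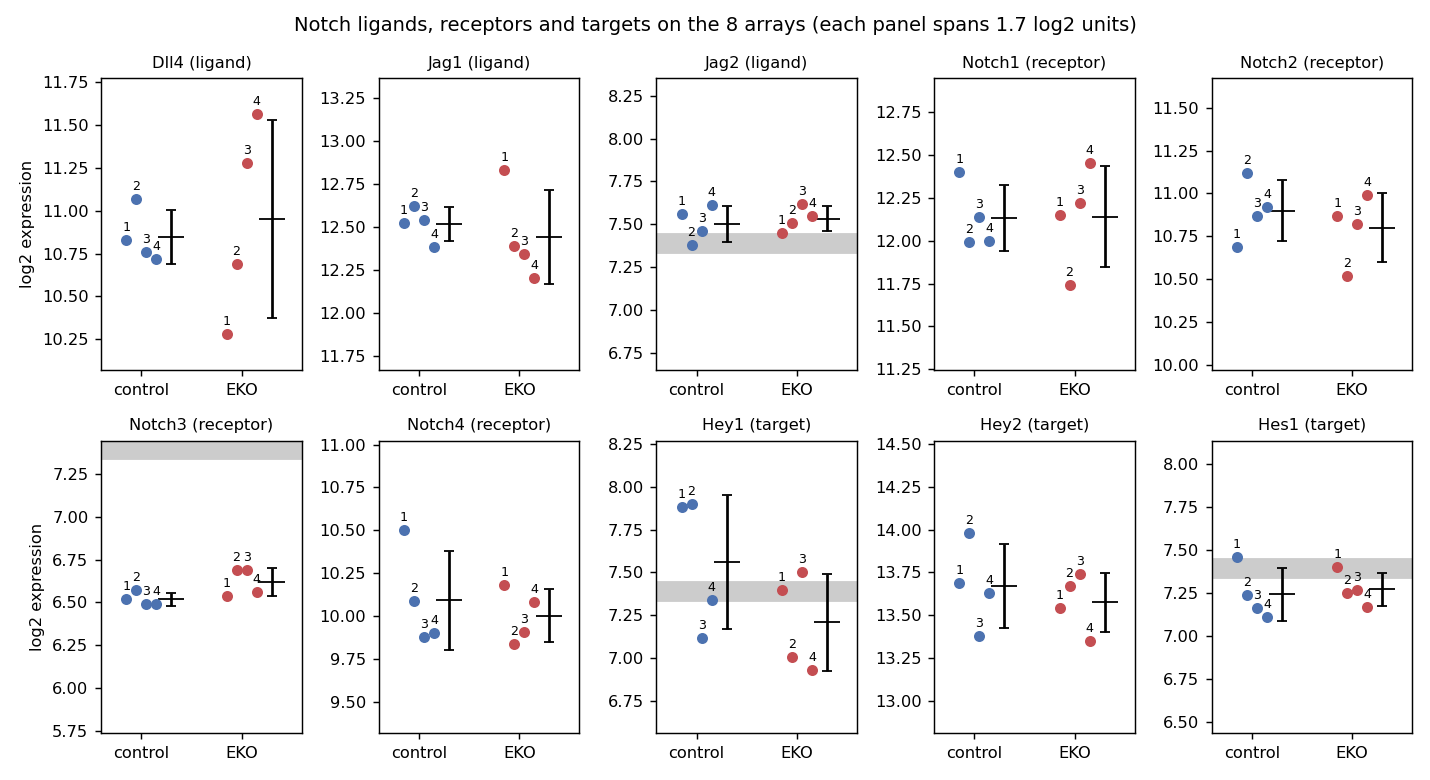
Log2 expression (vertical axis) of the 10 Notch genes on each of the 4 control (blue) and 4 EKO (red) arrays, with replicate numbers beside the points and the group mean ± SD beside each group. The grey band marks the range of array medians of the neg control probe sets (7.34 to 7.45) where it falls within a panel, and the groups overlap in all 10 panels.

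Among the ligands, Dll4, the Delta-like ligand of arterial endothelium, spread far more within the EKO arrays than between the groups. In the order of their replicate numbers, the control arrays gave 10.83, 11.07, 10.76 and 10.72, and the EKO arrays 10.28, 10.69, 11.28 and 11.56. The lowest and the highest readings of all 8 arrays were thus both from EKO aortas, and they lie 1.28 log2 units apart, a 2.42-fold range. The group values were 10.84 ± 0.16 and 10.95 ± 0.57 (SD, n = 4 each). EKO exceeded control by 0.11, with SE 0.26 and a 95% interval of -0.47 to 0.69 (limma adjusted p = 0.902). The SDs of the groups were not tested against each other. Its SD within groups, 0.42, stood at percentile 92.7 of all tested genes, the highest of the members. Single arrays set the sign of the difference, which was 0.33 once EKO array 1 was left out and -0.09 once EKO array 4 was; leaving out EKO array 3 brought it to -0.000233.

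Jag1, a Jagged ligand made by endothelium and smooth muscle, ordered the EKO arrays the other way round. The control arrays gave 12.52, 12.62, 12.54 and 12.38 in replicate order, and the EKO arrays 12.83, 12.39, 12.34 and 12.20. EKO array 1, lowest for Dll4, was highest for Jag1, and EKO array 4, highest for Dll4, was lowest for Jag1. The means were 12.52 ± 0.10 in control and 12.44 ± 0.27 in EKO arrays, a difference of -0.07 (SE 0.13, 95% interval -0.38 to 0.23, limma adjusted p = 0.867), which became -0.20 when EKO array 1 was dropped and 0.01 when EKO array 4 was. Jag2, the other Jagged ligand, lay close to the neg median (above it on 7 of 8 arrays), between 7.38 and 7.62, and averaged 7.50 ± 0.10 in control and 7.53 ± 0.07 in EKO arrays.

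The mean of the 8 smooth muscle markers was highest on the array where Dll4 was lowest and Jag1 highest, through 3 of the 8 genes. It was 8.12 there, the highest of EKO values that began at 7.58, while control arrays spanned 7.35 to 7.72. Acta2, smooth muscle actin, read 12.39, Tagln, transgelin, 11.03 and Smtn, smoothelin, 9.53 on EKO array 1, the highest value of the 8 arrays for each. The other 5 markers, all below the neg median, were not highest there, among them Myh11 at 6.93, Myocd at 6.12 and Lmod1 at 5.97. Over the 8 arrays the marker mean correlated with Dll4 at r = -0.546 (exact permutation p = 0.148, adjusted over 40 relations 0.659) and rho = -0.667 (p = 0.0831, adjusted 0.575), with r = -0.698 once EKO array 1 and control array 1, the arrays farthest from the median, were left out. For Jag1 it was r = 0.515 (exact permutation p = 0.18, adjusted 0.721) and rho = 0.214 (p = 0.619, adjusted 0.854), with r = 0.30 without those arrays. Neither relation passed. With the marker mean as a covariate the Dll4 difference was 0.39 and the Jag1 difference -0.21, and neither passed. The endothelial marker mean was highest on EKO array 4, at 14.21. It correlated with Dll4 at r = 0.635 (exact permutation p = 0.105, adjusted 0.593) and with Jag1 at r = -0.684 (p = 0.0689, adjusted 0.593). Without EKO array 4 and control array 3, the farthest from its median, r was 0.205 and -0.639. Neither of these passed.

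**Figure D2:**
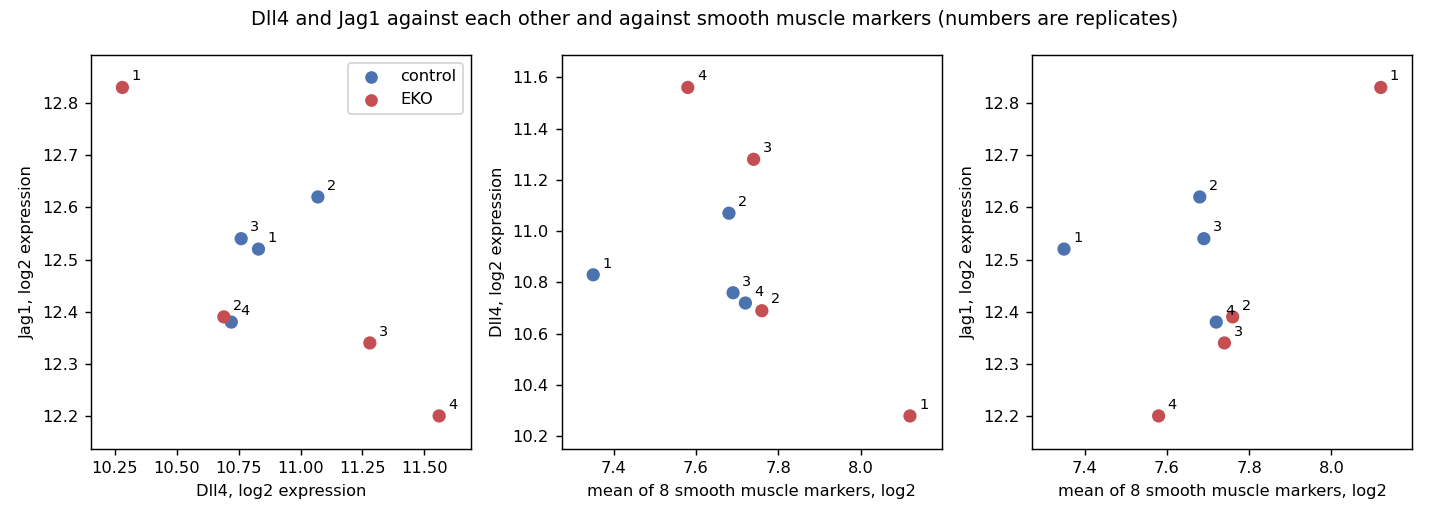
The first panel plots Jag1 against Dll4, and the others plot Dll4 and Jag1 against the mean of 8 smooth muscle markers, all as log2 values, with 1 point per array, control in blue and EKO in red, and replicate numbers beside the points. EKO array 1 has the lowest Dll4 (10.28), the highest Jag1 (12.83) and the highest marker mean (8.12), and EKO array 4 the highest Dll4 (11.56) and the lowest Jag1 (12.20).

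Of the receptors, Notch1, the main endothelial receptor, had the same mean in both groups to within 0.01. It read 12.40, 11.99, 12.14 and 12.00 on control arrays and 12.15, 11.74, 12.22 and 12.45 on EKO arrays 1 to 4. Both the lowest reading, on array 2, and the highest, on array 4, came from EKO aortas. The difference was 0.01 (SE 0.16, 95% interval -0.35 to 0.37, limma adjusted p = 0.992), an interval that leaves room for changes between 0.783-fold and 1.29-fold. Its sign was set by single arrays, at -0.10 when EKO array 4 was dropped and 0.14 when EKO array 2 was, and it was -0.00087 when each array was set to the mean of its endothelial markers.

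Notch4, a receptor largely restricted to endothelium, read 10.50, 10.09, 9.88 and 9.90 on control arrays and 10.18, 9.84, 9.91 and 10.08 on EKO arrays. Control array 1 stood highest, and without it the difference of -0.09 (SE 0.15, 95% interval -0.43 to 0.24, limma adjusted p = 0.85) became 0.05. Notch2, a receptor of endothelium, smooth muscle and other cells of the wall, read 10.69, 11.12, 10.87 and 10.92 on control and 10.87, 10.52, 10.82 and 10.99 on EKO arrays. EKO array 2 was its lowest, as it was for Notch1 and Notch4. Its difference was -0.10 (SE 0.12, 95% interval -0.38 to 0.18, limma adjusted p = 0.798) and -0.01 without EKO array 2.

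Notch3, the receptor of smooth muscle, was below the neg median on all 8 arrays. It read 6.52, 6.57, 6.49 and 6.49 on control arrays and 6.54, 6.69, 6.69 and 6.56 on EKO arrays. The groups nearly separated, with control array 2 the only control above an EKO array, but over a span of 0.20 log2 units in all. The means were 6.52 ± 0.04 and 6.62 ± 0.08 (SD, n = 4 each), and EKO minus control came to 0.10 with SE 0.07 (95% interval -0.05 to 0.25, limma adjusted p = 0.637). The difference was 0.04 after quantile normalization, the lowest of its values under the alternatives.

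Of the targets, Hey1 had the largest difference of the 10 genes and the smallest p. It read 7.88, 7.90, 7.12 and 7.34 on control arrays and 7.40, 7.01, 7.50 and 6.93 on EKO arrays. Control arrays 1 and 2 were the highest of the 8, EKO arrays 2 and 4 the lowest, and the remaining 2 EKO arrays lay inside the control range. The means were 7.56 ± 0.39 and 7.21 ± 0.28, a difference of -0.35 (SE 0.21, 95% confidence interval -0.83 to 0.13), or 0.785-fold with an interval from 0.564 to 1.09. The limma p was 0.13 before adjustment, rank 3378 among the 16232 genes, and 0.626 after it. It stayed below 0 in every alternative in which it was tested, from -0.50 without control array 3 to -0.24 without control array 1 or 2. Hey1 exceeded the neg median on only 3 of 8 arrays, so its readings also lie close to background.

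Hey2, whose promoter letters are printed above, had a smaller difference than Hey1. It read 13.69, 13.98, 13.38 and 13.63 on control arrays and 13.54, 13.67, 13.74 and 13.35 on EKO arrays, all of them above the 95th percentile of the neg control probe sets. Control array 2 was highest and EKO array 4 lowest, the latter 0.03 below control array 3. The difference was -0.10 (SE 0.14, 95% interval -0.41 to 0.21, limma adjusted p = 0.827), and 0.01 without control array 2. Hes1, which many signals besides Notch induce, read 7.11 to 7.46 on control and 7.17 to 7.40 on EKO arrays and was above the neg median on 1 of 8 arrays. Its difference was 0.03 (SE 0.09, limma adjusted p = 0.935). For the 3 targets together the mean log2 level was 9.49 ± 0.24 in control and 9.35 ± 0.16 in EKO arrays, and control arrays 1 and 2 (9.68 and 9.71) stood above all others.

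**Figure D3:**
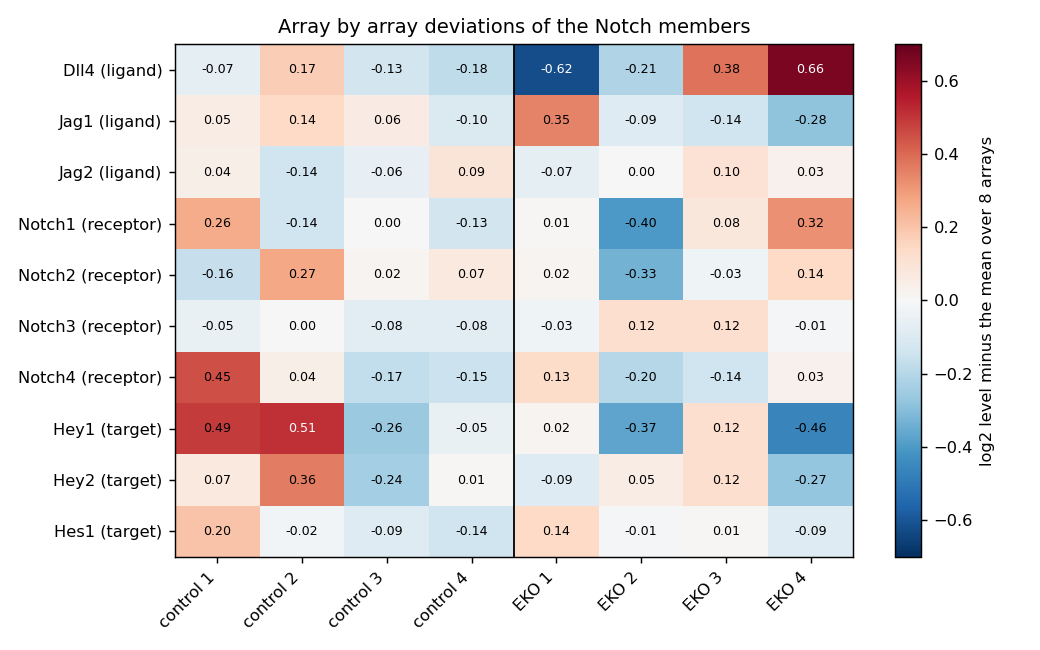
Each cell gives the log2 level of a gene on an array minus its mean over the 8 arrays, in red where higher and blue where lower, with the control arrays left of the line and the EKO arrays right of it. Dll4 runs from -0.62 on EKO array 1 to 0.66 on EKO array 4, Jag1 from 0.35 to -0.28 on the same arrays, and Hey1 stands at 0.49 and 0.51 on control arrays 1 and 2.

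The deviations did not line up by group. EKO array 4 was the highest array for Dll4 and Notch1 and the lowest for Jag1, Hey1 and Hey2. EKO array 2 was lowest for 3 of the 4 receptors, Notch1, Notch2 and Notch4. Markers of other cells also varied on these arrays. Leukocyte markers averaged 8.29 on EKO array 2, against 6.50 to 8.08 in control arrays and 7.35 to 7.68 on the other EKO arrays. Of the 8 markers 3 were highest there, the neutrophil genes S100a8 (11.32) and S100a9 (10.92) and the T cell gene Cd3e (7.61). The other 5 were not, and Cd68 (7.52), Csf1r (6.69) and Itgam (6.67) were the lowest of the EKO arrays. None of these 8 markers was above the neg median on all arrays. The 7 tested adipocyte markers averaged 8.09 on EKO array 2, their lowest. Control arrays gave 8.61 to 11.33 and the other EKO arrays 9.01 to 10.64. Of all 8 adipocyte markers 5 were lowest on EKO array 2, and 4, Ucp1 among them, were above the neg median on all arrays. The part of the leukocyte markers in the receptor readings was not tested. The adipocyte marker mean correlated over the 8 arrays with Notch1 at r = 0.297, Notch2 at 0.323 and Notch4 at -0.0746. None of these passed after adjustment. With that mean as a covariate the differences were 0.05 for Notch1, -0.08 for Notch2 and -0.11 for Notch4, and none passed.

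Of 40 relations between the 10 members and the means of endothelial, smooth muscle, fibroblast and adipocyte markers over the 8 arrays, none passed after adjustment. The strongest by exact permutation were those of Notch3, with adipocyte markers at r = -0.781 (p = 0.0213, adjusted 0.499; rho = -0.833, p = 0.0154, adjusted 0.436) and with fibroblast markers at r = -0.796 (p = 0.025, adjusted 0.499; rho = -0.81, p = 0.0218, adjusted 0.436). Without the 2 arrays farthest from the median of the marker mean, r was -0.593 and -0.721, and over deviations from the group means -0.831 and -0.683. The fibroblast marker mean was 8.62 ± 0.38 for control and 8.25 ± 0.24 for EKO arrays, with 6 of 7 tested lower. Over all tested genes 8939 of 16232 were lower. Of the 7 markers 0 passed the adjusted threshold and 2 the unadjusted one, 28.6% beside 8.93% of all genes. These 2 were Pi16 and Col1a2, the latter below the neg median on all 8 arrays. Only 3 of the 7 were above the neg median on all arrays. The adipocyte marker mean was 10.05 ± 1.30 for control and 9.42 ± 1.11 for EKO arrays (7 of 7 tested lower, 0 past either threshold). With the adipocyte marker mean as a covariate the Notch3 difference was 0.07 (limma adjusted p = 0.733). The part of the fibroblast markers in the Notch3 readings was not tested beyond the relation given above.

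The rest of the pathway was read from a list of 46 other genes, of which 44 had a single-symbol probe set and 36 were tested. With limma 0 of the 36 passed, 15 being higher and 21 lower in EKO arrays, with a median difference of -0.03. At an unadjusted p of 0.05 there were 2 higher and 2 lower genes, 11.1% of the list, beside 8.93% of all genes. The groups did not overlap for 2 of the 36, Aph1b and Pofut1, against 6.08% of all genes.

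Genes of receptor processing include those of gamma-secretase, the membrane protease that frees the Notch intracellular domain. Aph1b, encoding one of its subunits, read 11.82, 12.05, 11.99 and 11.66 on control arrays and 12.34, 12.27, 12.06 and 12.20 on EKO arrays. Every EKO array lay above every control array, the nearest by 0.01, and the difference was 0.34 (SE 0.10, limma unadjusted p = 0.0108, adjusted p = 0.511). Its close paralogue Aph1c differed by 0.18 (limma adjusted p = 0.584). The 2 genes are alike in sequence, so probes could be shared between them and the values are uncertain. The other 7 tested genes of this role, such as the protease gene Adam10 (0.03) and the nicastrin gene Ncstn (0.09), differed by -0.09 to 0.09.

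Sugars added to the extracellular part of the receptors tune their choice of ligand. Lfng, encoding lunatic fringe, which favours Delta-like over Jagged ligands, read 8.66, 8.13, 8.04 and 8.50 on control arrays and 9.01, 8.73, 9.03 and 8.48 on EKO arrays. All EKO arrays but array 4 exceeded all control arrays. The difference of 0.48 (SE 0.17, limma unadjusted p = 0.023, adjusted p = 0.532) was the largest of the list. Pofut1, encoding the O-fucosyltransferase on whose fucose the fringe enzymes act, read 8.92, 9.17, 8.91 and 8.90 on control arrays and 8.74, 8.82, 8.86 and 8.72 on EKO arrays. Its groups did not overlap, with a difference of -0.19 (SE 0.08, limma unadjusted p = 0.0428, adjusted p = 0.552). The other fringe genes, Mfng (0.21) and Rfng (-0.06), and the glucosyltransferase gene Poglut1 (0.00) did not pass at either threshold.

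In the nuclear complex the 8 tested genes lay close to 0, between -0.14 for the acetyltransferase gene Kat2b and 0.09 for Ep300, with Rbpj at -0.03 (limma adjusted p = 0.927). Among 10 tested genes of endocytosis and turnover, 8 were lower and 2 higher in EKO arrays. Dtx3, a Deltex family gene, read 8.62, 8.82, 8.52 and 8.71 on control and 8.51, 8.26, 8.57 and 8.36 on EKO arrays, a difference of -0.25 (SE 0.10, limma unadjusted p = 0.0338, adjusted p = 0.548). Mib1, the ubiquitin ligase that lets ligands be internalised, differed by -0.16 (limma adjusted p = 0.583). The Delta-like ligand gene Dll1 varied widely, from 9.66 on control array 2 to 12.17 on control array 1, with EKO arrays between 10.19 and 11.05. Of the other targets, Heyl, Hes6 and Nrarp read below the neg median on all 8 arrays, and Hes5 and Hes7 did not reach the level filter.

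**Figure D4:**
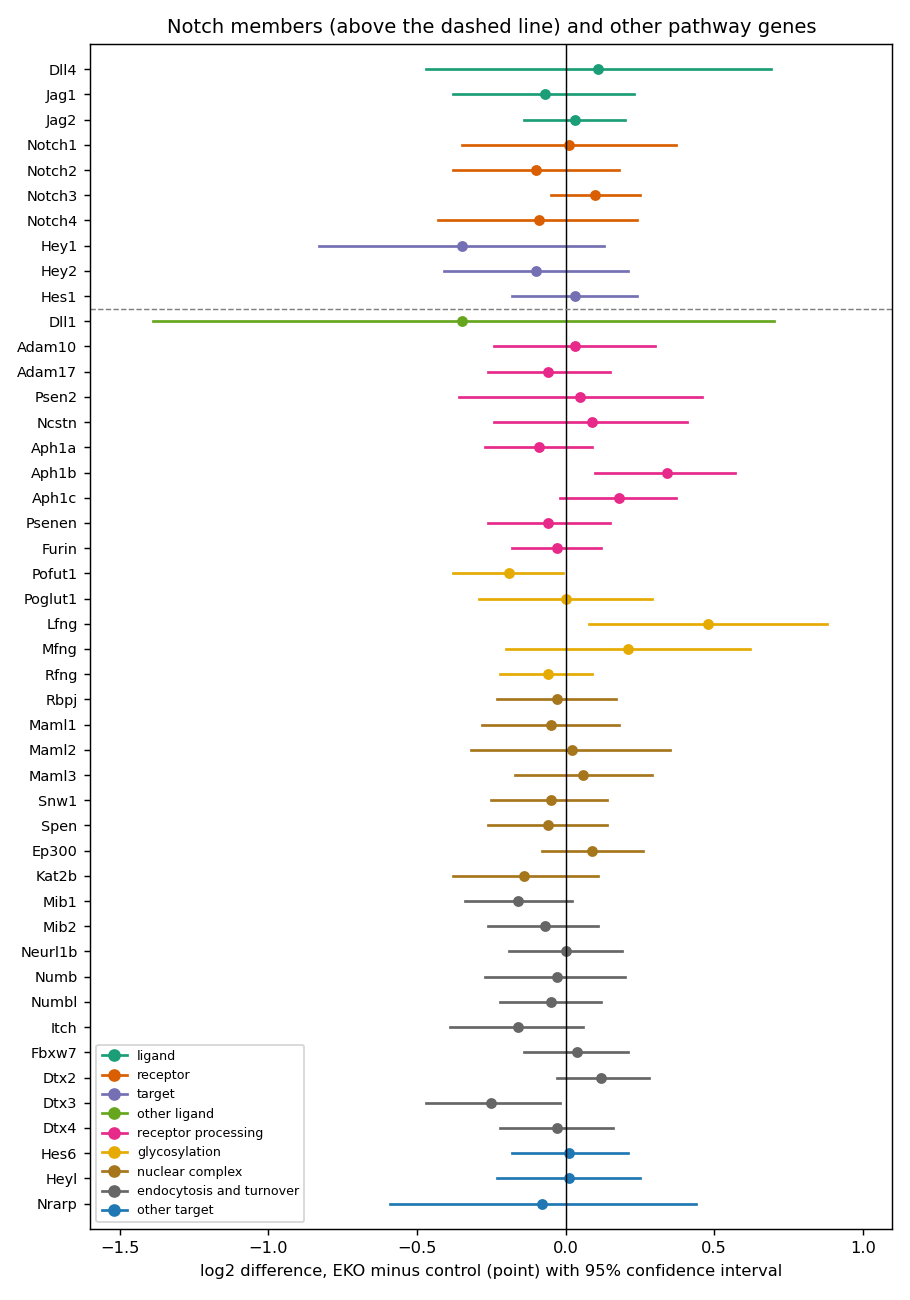
Log2 difference between EKO and control arrays (points, horizontal axis) with its 95% confidence interval for the 10 Notch members, above the dashed line, and the 36 other tested genes of the pathway, coloured by role. The intervals of all 10 members include 0, and those of Aph1b, Lfng, Pofut1 and Dtx3 do not, though none passed after adjustment over all genes.

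Genes that mark arterial and venous endothelium, states in which Notch activity differs, did not pass either. Of 11 tested arterial genes 0 had a limma unadjusted p under 0.05, beside 8.93% of all genes tested, with 6 higher, 5 lower and a median difference of 0.01, beside -0.02 for all genes. The smallest p among them belonged to the connexin gene Gja4 (-0.13), Depp1 (0.10), the chemokine receptor gene Cxcr4 (0.52) and the kinase gene Bmx (-0.13), with limma adjusted p between 0.676 and 0.765. Cxcr4 read 4.87 to 6.95 on control and 5.86 to 6.67 on EKO arrays, all below the neg median. Of 5 venous genes 4 were tested, since Nr2f2 (5.87 in control, 5.58 in EKO arrays) did not reach the level filter. Among these 4, with a median difference of -0.01, 1 had an unadjusted p under 0.05, beside the same 8.93%. This was Nrp2, a co-receptor for semaphorins and VEGF (0.48, SE 0.20, limma unadjusted p = 0.0434, adjusted p = 0.552). It read 6.36 to 7.19 on control and 6.93 to 7.46 on EKO arrays. Ephb4 differed by 0.01, Aplnr by -0.07 and Emcn by -0.03.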

How the data were processed

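RNA of 8 aortas, 4 per group, was measured on 1 array each. Per the labels, 5 ng of RNA was converted to biotinylated cDNA (WT Pico), and the authors deposited log2 values made by SST-RMA in Expression Console. The version and settings are not stated in the labels. Of 72688 probe sets, 30604 had 1 gene symbol in the platform annotation, 2146 had several and 33206 were not listed. Symbols were updated through RefSeq (GRCm38.p6). A symbol with several probe sets was represented by the brightest of them on average. The tests kept genes averaging above 6.14 (the median probe set) and ran limma 3.58.1 under R 4.3.3, as lmFit then eBayes without covariates, with Benjamini-Hochberg adjustment. Relations over arrays used exact permutation over all pairings, two-sided (SciPy 1.17.1).

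The fit was first tested on simulated data. Members and lists were chosen with earlier results of these data known. Named were the members, Mef2c, up to 4 genes with the smallest p of each list and the 2 genes nearest to each member in pattern; other genes named were chosen after their values were seen. The labels give no array batch. Each array holds 1 mouse, and the number of arrays limits the precision.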

Additional observations from a re-analysis of the deposited data

How the results depend on the processing

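Under 19 alternatives (level filter, probe set, scaling, variance model, array weights, covariates, the replicate number as a block, and each array left out in turn), limma called 0 members, 0 other pathway genes and 0 genes in all in each, the smallest adjusted p of any gene being 0.169 and of any member 0.405. Of 186 refitted member differences, 172 kept their sign. The level filters, the mean over probe sets, the variance model and the replicate block could not change a member's difference. The count therefore overstates how stable the signs are. With 1 array left out the differences ranged from -0.09 to 0.33 for Dll4, from -0.20 to 0.01 for Jag1, from -0.01 to 0.07 for Jag2, from -0.10 to 0.14 for Notch1, from -0.16 to 0.05 for Notch4, from -0.19 to 0.01 for Hey2 and from -0.02 to 0.10 for Hes1, each turning sign; Notch2, Notch3 and Hey1 did not turn. The other turned value was Notch1 at -0.00087, with arrays set to their endothelial markers. That scaling moves the difference of every gene by the same amount. It took the median over all genes from -0.0188 to -0.0261, and the Notch1 difference from 0.01 to just below 0. A stricter level filter, the 75th percentile, left Jag2, Notch3, Hey1 and Hes1 untested. The median difference of all genes lay between -0.0261 and 0.0165 under the scalings. Of the 40 relations with marker lists 0 passed, also over deviations from the group means. Same-numbered arrays deviated together with r from -0.242 to 0.206, and not every array correlated best with its own number. Weak correlation of deviations does not exclude that same-numbered mice were paired, so whether the numbers pair the mice was not decided. With the replicate block the count was 0 as well. The differences were as without it, as they must be when each replicate number occurs once per group. Notch3 lies below the median of the neg control probe sets, and Hey1, Hes1 and Jag2 lie close to it, which limits what their readings can show. Dll4, Notch2 and Notch4 stood above that median on all arrays, but mostly within the wide spread of those probe sets.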

Other observations

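After the values were seen, the 45 pairs of members were correlated over the 8 arrays by exact permutation, and none passed after adjustment over the pairs. Dll4 and Jag1 gave r = -0.755 (p = 0.032, adjusted 0.48; rho = -0.571, p = 0.151, adjusted 0.945). Without EKO arrays 1 and 4, the farthest from the median, r was -0.0351, so this relation rests on those arrays. Hey1 and Hey2, the Hairy-related repressors, gave r = 0.769 (p = 0.0255, adjusted 0.48; rho = 0.81, p = 0.0218, adjusted 0.628), and r = 0.603 without control arrays 1 and 2. Notch4 and Hes1 gave r = 0.792 (p = 0.0174, adjusted 0.48; rho = 0.619, p = 0.115, adjusted 0.945) and 0.0374 without control array 1 and EKO array 1.

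Ranked by Pearson r over the 8 arrays among 10819 named genes, the patterns most like Dll4 were those of Zfp787 (r = 0.976) and Birc2 (0.959), and those most like Jag1 were Tars (0.96) and Ddr1 (0.958). For the receptors they were Cdc42se1 (0.984) and Mad2l1bp (0.951) for Notch1, Ggcx (0.988) and Fbxo28 (0.966) for Notch2, and Plxna3 (0.951) and Mertk (0.944) for Notch4. For the targets they were Smo (0.961) and Dgcr2 (0.953) for Hey1 and Tspan8 (0.978) and Lin37 (0.953) for Hey2. These genes were picked as the highest of all those ranked, so the ranking carries no test. For Jag2, Notch3 and Hes1, which lie near or below the control probe sets, the nearest genes were Rnf25, Trav13d-4 and Ppp1r18. Hey1 also lies close to the neg control probe sets, above their median on 3 of 8 arrays.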
